A study of Bos taurus with 14 samples.

Results

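bta-miR-2332, bta-miR-677, bta-miR-1434-3p and bta-miR-2411-3p are 4 of the 341 miRNAs retained in the PWBC (peripheral white blood cells) of Angus-Simmental crossbred heifers, out of 614 with at least 1 count and 1030 listed. They were chosen by their measured levels, which followed the share of sequenced reads that mapped to the genome in each heifer, so that this relation and the relation of the 4 miRNAs to each other are given as descriptions without a test. Each was listed on 1 line of the count table. Small RNA was sequenced from blood taken at weaning from 14 heifers of this cross, 1 library per heifer. The fertile group (FH, n = 7) later became pregnant to artificial insemination (AI). The subfertile group (SFH, n = 7) is labelled as not pregnant to AI, and by the methods of the study these heifers were also not pregnant after the exposure to bulls that followed. PWBC are a mixture of cell types, and a change in the number of cells of a type cannot be told apart from a change in RNA per cell in such samples.

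A miRNA is cut by Drosha and Dicer from a hairpin in a longer transcript, and 1 or both arms of the hairpin (−5p and −3p) are kept in Argonaute proteins, where they guide the repression of mRNAs. Many hairpins lie within protein-coding genes and can be transcribed with them. A gene used by nearly every cell is called a housekeeping gene, and such a host does not by itself tell which blood cell type a miRNA comes from. The share of reads mapped is a property of the whole library, namely the part of its reads that could be aligned to the genome, and only its order over the heifers and its relation to the miRNAs are given here.

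The host genes were looked up by name in RefSeq (ARS-UCD2.0), a later assembly than the one used for the counts, which was used without its coordinates. The precursor of bta-miR-2332 overlaps *UTP6*, whose protein takes part in the maturation of ribosomal RNA. The precursor of bta-miR-677 overlaps *ATP5F1B*, the beta subunit of the mitochondrial ATP synthase, and also a long non-coding RNA gene, *LOC112446708*. The precursor of bta-miR-1434-3p overlaps *EEF2*, the factor that moves the ribosome along the mRNA. The precursor of bta-miR-2411-3p overlaps *UBAP2L*, an RNA-binding protein found in stress granules. By these functions all 4 protein-coding hosts are taken to be broadly used genes, and 3 of them serve translation, ribosome assembly or energy supply. The levels of the host genes themselves were not examined here. *ATP5F1B* and *UBAP2L* each also hold 1 annotated small nucleolar RNA gene, whereas none is annotated in *UTP6* or *EEF2*. A protein-coding host with such a gene was found for 16 of the 332 retained miRNAs matched by name, with 2 of the 4 included. The overlap does not take strand into account. Of the 332 retained miRNAs that matched a precursor gene by name, 217 overlap a protein-coding gene, so lying within a gene is common among all of them.

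The depth was 1754971 to 5468341 counts per heifer in FH and 1831960 to 3958469 counts in SFH. The upper limit behind a count of 0 is 3 counts, or 0.549 to 1.71 CPM (counts scaled to a common library total) depending on the heifer, and it covers counting error only. Reads from copies made by PCR were not separated, since no molecular identifiers are described. The total was itself related to the share of reads mapped (Pearson's r = 0.84 and Spearman's rho = 0.83 over the 14 heifers), so that the parts of depth and share in the results below cannot be told apart. All 5 miRNAs of a lymphocyte list (among them bta-miR-150) and all 4 of a myeloid list (among them bta-miR-223) were retained. Since retention asked only for at least 1 CPM in at least 7 heifers, this does not tell the tissue apart from others.

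bta-miR-2411-3p had 131 CPM at the lowest, 407 CPM at the median and 1253 CPM at the highest in FH. In SFH it had 114, 1060 and 1956 CPM in the same order. The lowest value of all belonged to SFH heifer 30 and the highest to SFH heifer 32, which had the lowest share of reads mapped of the 14. The FH values ran in nearly the same way, from 131 CPM in heifer 27, with the highest share of all, to 1253 CPM in heifer 24, with the lowest share in that group. Over the 14 heifers, log2 CPM was correlated with the share at r = −0.90 (rho = −0.96). The value was r = −0.91 (rho = −0.96) within FH and r = −0.89 (rho = −0.96) within SFH. In the edgeR model with the group as a second term, the level fell by 1.27 on the log2 scale (standard error 0.21) for each 10 percentage points of additional reads mapped.

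bta-miR-2332 had 201 CPM at the lowest, 709 CPM at the median and 1732 CPM at the highest in FH. In SFH it had 115, 2104 and 3936 CPM. Again heifer 30 was lowest and heifer 32 highest, a difference of 34.2-fold within the SFH group. The correlation with the share was r = −0.85 (rho = −0.88) over all heifers, r = −0.83 (rho = −0.96) within FH and r = −0.88 (rho = −1) within SFH. In SFH the order of the 7 heifers by bta-miR-2332 was thus exactly the reverse of their order by share. The slope was −1.25 on the log2 scale (standard error 0.26) for each 10 percentage points.

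bta-miR-677 was lower, at 8.21 CPM (lowest), 42.8 CPM (median) and 80.5 CPM (highest) in FH. The SFH values were 31.3, 107 and 232 CPM. The lowest SFH value was again that of heifer 30, but the highest was that of heifer 28 and not of heifer 32. FH heifer 29 lay far down the range at 37 counts, although 3 heifers had a higher share of reads mapped. The relation to the share was looser than for the first pair, with r = −0.72 (rho = −0.70) over all heifers, r = −0.61 (rho = −0.46) within FH and r = −0.84 (rho = −0.79) within SFH. The slope was −0.82 on the log2 scale (standard error 0.32).

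bta-miR-1434-3p was close to the limit of detection, with 439 counts in all heifers together. It had no count in FH heifers 25, 29 and 31, where 3 counts would be 0.634, 0.666 and 0.904 CPM, and none in SFH heifer 30, where they would be 0.758 CPM. The other FH heifers had between 1.46 and 12.0 CPM, and the other SFH heifers between 4.51 and 41.9 CPM. The 4 heifers without a count ranked 10 to 13 of 14 by share of reads mapped, and heifer 27, which ranked 14, had 8 counts. The correlation was r = −0.68 (rho = −0.66) over all heifers, r = −0.58 (rho = −0.63) within FH and r = −0.73 (rho = −0.50) within SFH. Its slope, −1.79 on the log2 scale, had a standard error of 1.12 and was the least certain of the 4. Within SFH the relation rested on heifer 30, without which r was −0.25.

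**Figure D1:**
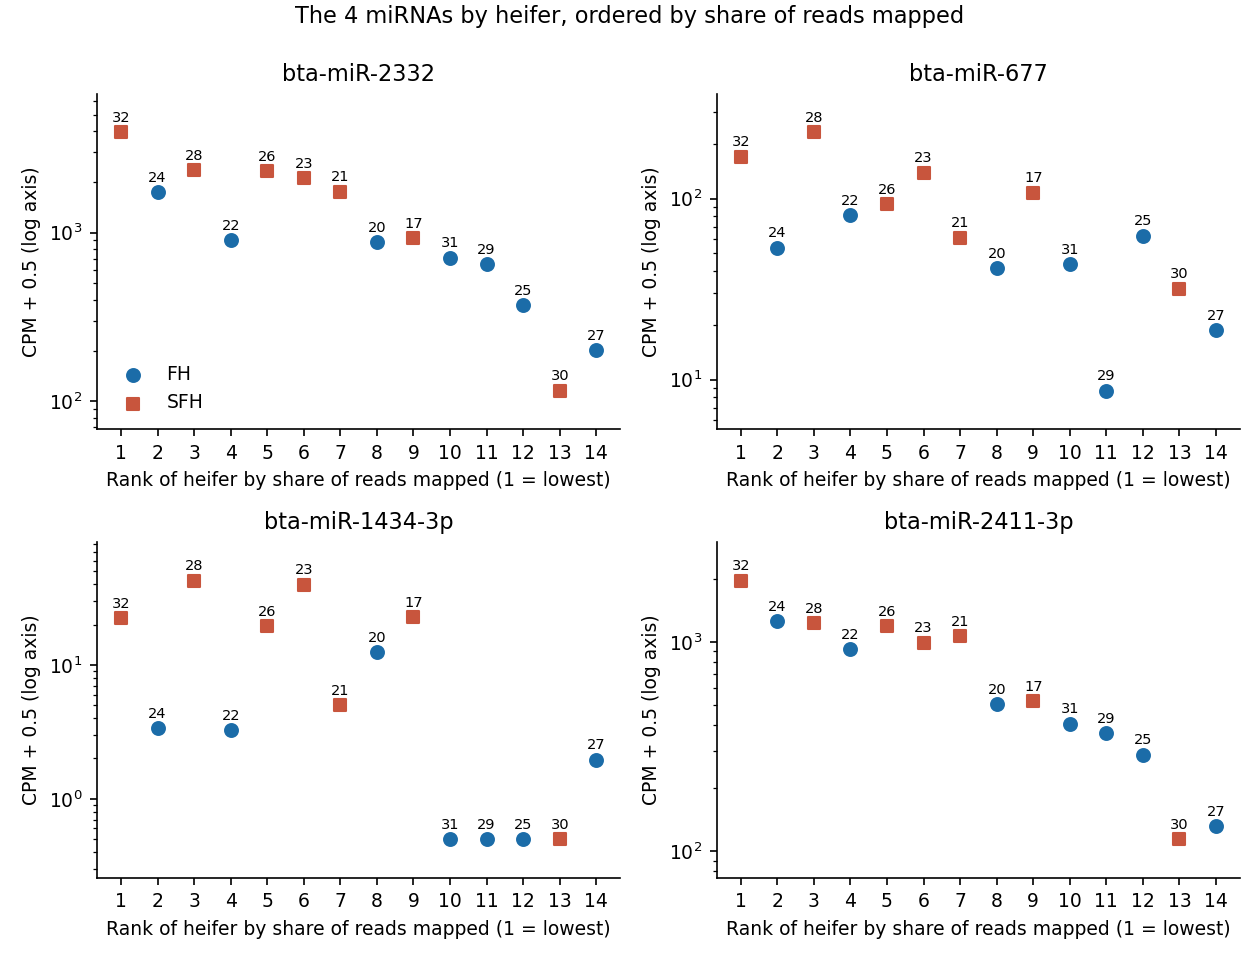
Level of each miRNA in each heifer (CPM + 0.5, logarithmic y axis) against the rank of the heifer by the share of reads mapped (x axis, 1 is the lowest share), with circles for FH, squares for SFH and the heifer number above each point. bta-miR-2411-3p and bta-miR-2332 descend from heifer 32 on the left to heifers 30 and 27 on the right, while bta-miR-677 and bta-miR-1434-3p scatter more widely, and 4 heifers without a count of bta-miR-1434-3p lie at the bottom of the lower left panel.

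These coefficients can be read against those of all retained miRNAs. The median r with the share was −0.05 over the 341 miRNAs, and 50% of them lay between −0.24 and 0.17. Ordered from the most negative, bta-miR-2411-3p ranked 1, bta-miR-2332 ranked 2, bta-miR-677 ranked 5 and bta-miR-1434-3p ranked 7. An r below −0.6 was reached by 9 miRNAs, the 4 included, and an r below −0.5 in both FH and SFH by 12, again with the 4 included. When the slope on the share was tested for every miRNA with edgeR, 2 of the 341 (0.587%) had an adjusted p (Benjamini-Hochberg) of 0.05 or less, and both, bta-miR-2411-3p and bta-miR-2332, are among the 4. Since the 4 were picked for this relation, that count is descriptive. It was 1 (bta-miR-2411-3p) without FH heifer 24 or without FH heifer 27, and the other 12 fits that each left out 1 heifer kept both. Without the 2 heifers farthest from the median share (32 and 27), r was −0.86 for bta-miR-2411-3p, −0.77 for bta-miR-2332, −0.68 for bta-miR-1434-3p and −0.62 for bta-miR-677.

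**Figure D2:**
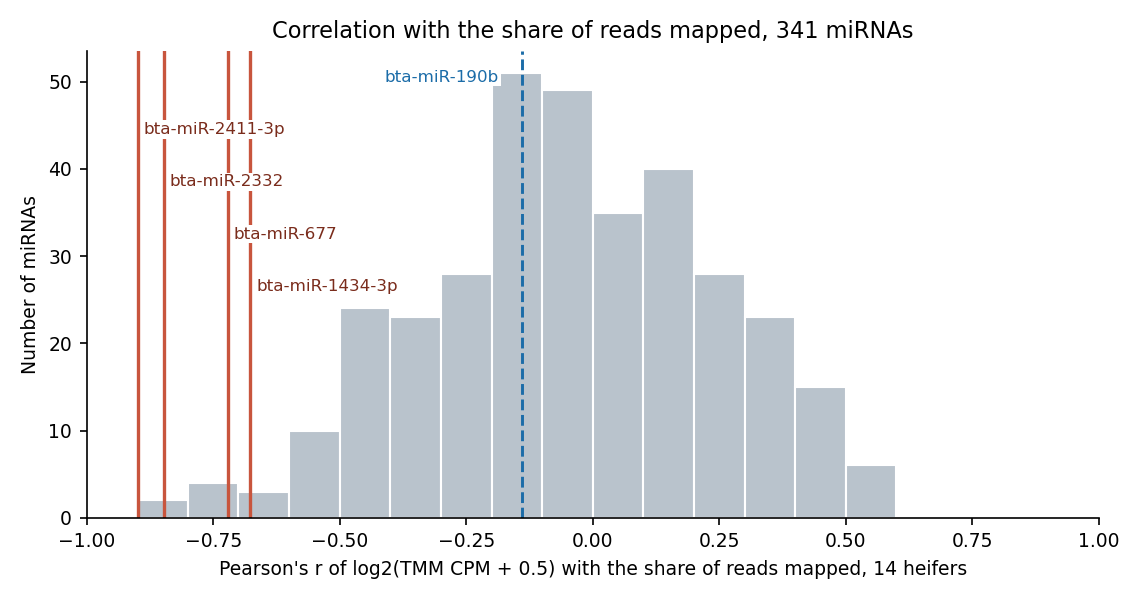
Number of miRNAs (y axis) by Pearson's r of log2(TMM-normalized CPM + 0.5) with the share of reads mapped over 14 heifers (x axis), with solid lines for the 4 miRNAs and a dashed line for bta-miR-190b, which has the same host gene as bta-miR-2411-3p. The 4 lie between −0.90 and −0.68, in the left tail of the 341, and bta-miR-190b lies near the middle at −0.14.

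bta-miR-2332 and bta-miR-2411-3p, which come from different host genes, rose and fell together. Their log2 levels were correlated at r = 0.98 (rho = 0.94) over the 14 heifers, r = 0.95 (rho = 1) within FH and r = 0.996 (rho = 0.96) within SFH. Among the 35511 pairs of retained miRNAs with a mean of at least 10 CPM, 12 had an r at least as high, with this pair counted among them. The 12 are not all pairs of separate miRNAs, because some names carry the same values. Examples are bta-miR-199a-3p with bta-miR-199c and bta-miR-23b-3p with bta-miR-10174-3p, each with the same mean CPM and the same r with the share. bta-miR-2332 spanned 34.2-fold and bta-miR-2411-3p 17.2-fold across the heifers, whereas the ratio of their counts spanned 2.17-fold, from 0.979 in FH heifer 22 to 2.13 in SFH heifer 23. The standard deviation of the ratio was 0.35 on the log2 scale, compared to 1.44 for bta-miR-2332 and 1.25 for bta-miR-2411-3p. The mean ratio was 1.49 (SD 0.299) for the 7 FH heifers and 1.78 (SD 0.370) for the 7 SFH heifers, and by an exact permutation test (two-sided, on the log2 ratio) this difference was within the spread of the heifers (p = 0.207). Once the share and the group were fitted, the residuals of the pair still had r = 0.92.

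The other 5 pairs were correlated less closely. Over the 14 heifers, r was 0.76 (rho = 0.80) for bta-miR-677 and bta-miR-1434-3p and 0.72 (rho = 0.84) for bta-miR-2332 and bta-miR-1434-3p. It was 0.67 (rho = 0.70) for bta-miR-2411-3p and bta-miR-1434-3p, 0.66 (rho = 0.66) for bta-miR-2411-3p and bta-miR-677, and 0.65 (rho = 0.81) for bta-miR-2332 and bta-miR-677. Within SFH these pairs ranged from r = 0.78 to 0.93, but within FH they ranged from 0.27 to 0.46. A part of the SFH values rested on heifer 30, which was low in all 4 miRNAs. Without it, the SFH values were 0.86 for bta-miR-677 with bta-miR-1434-3p, 0.42 for bta-miR-2332 with bta-miR-677, 0.33 for bta-miR-2411-3p with bta-miR-677 and 0.15 for bta-miR-2332 with bta-miR-1434-3p, and bta-miR-2411-3p with bta-miR-1434-3p was at r = −0.00088. Once the share and the group were fitted, the residuals of these 5 pairs had r between −0.064 and 0.31.

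**Figure D3:**
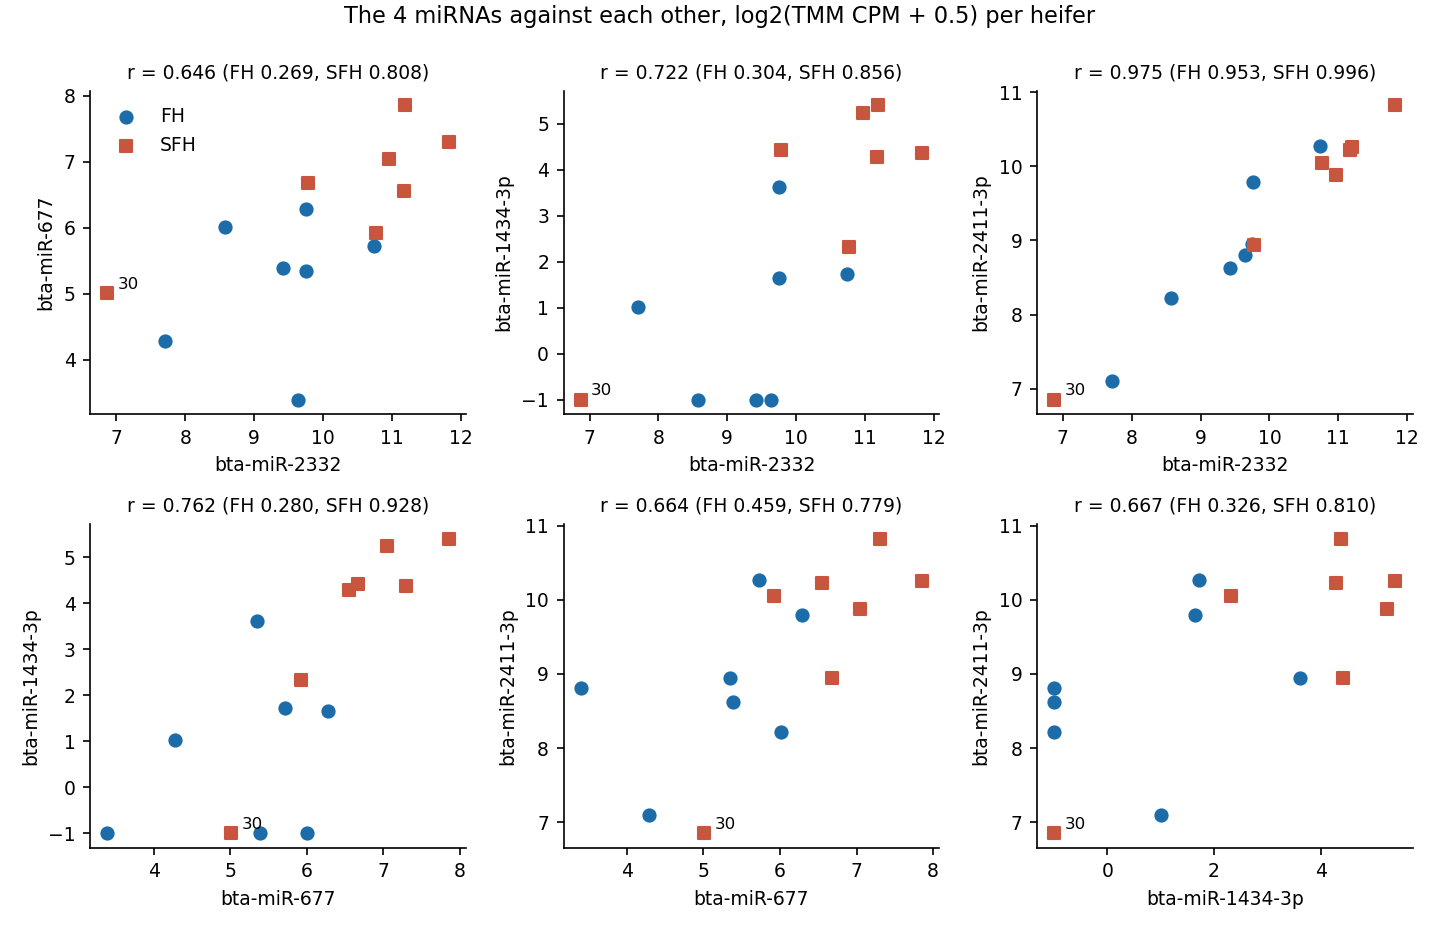
Each panel plots log2(TMM-normalized CPM + 0.5) of one miRNA against another for the 14 heifers (circles FH, squares SFH, heifer 30 labelled), with Pearson's r over all heifers and within each group above it. The upper right panel, bta-miR-2411-3p against bta-miR-2332, falls along a line (r = 0.975), while the points of the other panels, with r between 0.646 and 0.762, scatter more widely.

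Other miRNAs of the same host genes allowed a comparison within a locus. bta-miR-190b also overlaps *UBAP2L*, and it was nearly unrelated to bta-miR-2411-3p (r = −0.03, rho = −0.06 over 14 heifers) and to the share of reads mapped (r = −0.14, rho = 0.11). It was measured at 0 to 29.8 CPM with 613 counts in all, against 27884 counts of bta-miR-2411-3p. The opposite arm of the bta-miR-2411 hairpin, bta-miR-2411-5p, had 117 counts in all, no count in 7 heifers, and an r with the share of 0.0045. The coefficients of these 3 miRNAs of 1 host gene were thus unlike, but the low counts of bta-miR-190b and bta-miR-2411-5p limit what could be seen, and the difference between them was not tested. In *EEF2*, bta-miR-1434-5p followed the share at r = −0.71 (rho = −0.73), with 135 counts in all and no count in 6 heifers. Its r with the share was −0.69 within FH and −0.67 within SFH, and −0.41 within SFH without heifer 30. Its correlation with bta-miR-1434-3p was r = 0.71 (rho = 0.68) over all heifers, 0.88 within SFH and 0.28 within FH. No other retained miRNA overlapped *UTP6* or *ATP5F1B*.

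Likeness to the 4 was ranked among the other retained miRNAs with a mean of at least 10 CPM. The miRNA of these whose pattern was most like theirs was bta-miR-1248 in every case. Its r over the 14 heifers was 0.86 with bta-miR-1434-3p, 0.78 with bta-miR-677, 0.74 with bta-miR-2332 and 0.71 with bta-miR-2411-3p, at 0 to 76.5 CPM and with no count in 2 heifers. In the annotation its 2 precursor genes overlap *EIF4A2*, an RNA helicase of translation initiation, and *MYO5A*, a myosin that carries vesicles. Within FH its r was 0.20 with bta-miR-2332 and 0.25 with bta-miR-2411-3p, against 0.96 and 0.95 within SFH. Next in likeness to bta-miR-2332 were bta-miR-1246 (r = 0.68) and bta-miR-2427 (r = 0.66), and the same 2 followed for bta-miR-2411-3p (r = 0.62 for each). Within FH, bta-miR-1246 had r = −0.25 with bta-miR-2332 and −0.12 with bta-miR-2411-3p, against 0.94 and 0.92 within SFH. For bta-miR-2427 these values were 0.18 and 0.16 within FH, and 0.86 for each within SFH. Below the floor of 10 CPM, bta-miR-1434-5p (mean 4.06 CPM) had r = 0.66 with bta-miR-2411-3p over the 14 heifers. For bta-miR-677 the next were bta-miR-152 (r = 0.70) and bta-miR-744 (r = 0.61). For bta-miR-1434-3p they were bta-miR-2440 (r = 0.72), which overlaps the ribosomal protein gene *RPL3*, and bta-miR-152 (r = 0.72). Within FH and within SFH, bta-miR-677 had r = 0.28 and 0.83 with bta-miR-152, and 0.70 and 0.42 with bta-miR-744. In the same order, bta-miR-1434-3p had r = 0.81 and 0.25 with bta-miR-2440, and 0.17 and 0.87 with bta-miR-152.

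Among miRNAs with a mean of at least 10 CPM outside the 4, the lowest r with the share was found for bta-miR-1248 (−0.76), bta-miR-450a (−0.67) and bta-miR-11972 (−0.61). The highest was found for bta-miR-128 (0.55), bta-miR-1249 (0.54) and bta-miR-1306 (0.53). No miRNA rose with the share as closely as bta-miR-2411-3p and bta-miR-2332 fell with it. bta-miR-219, at a mean of 4.64 CPM, ranked 3 of 341 with r = −0.77 and was named after its value was seen.

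For lists of miRNAs known from blood cell types, the r with the share was 0.14 to 0.31 for the 5 lymphocyte miRNAs, −0.30 to 0.36 for the 4 myeloid miRNAs and 0.05 to 0.15 for both arms of bta-miR-126, which are abundant in platelets and endothelium. Of the erythroid list, bta-miR-451 had r = 0.24 and bta-miR-486 had r = 0.49, and bta-miR-144 was not retained. A list of 8 miRNAs, set up for overlap with transfer RNA or small nucleolar RNA genes, had 7 retained. Their r was spread widely, from −0.76 for bta-miR-1248 to 0.36 for bta-miR-664b. The overlap was not established for each of them, and bta-miR-2904 matched no precursor gene by name. The summed level of the lymphocyte list was 73412 to 128932 CPM in FH and 66177 to 144193 CPM in SFH, and that of the myeloid list was 40807 to 59035 CPM in FH and 44871 to 57875 CPM in SFH. The erythroid list summed to 1574 to 3713 CPM in FH and 1463 to 9236 CPM in SFH, and bta-miR-126 to 22.4 to 68.3 CPM in FH and 4.52 to 47.0 CPM in SFH. The sums of these lists overlapped between the groups. In the slope test 0 of the 20 retained miRNAs of these 5 lists were called, where 0.587% of all miRNAs were. The annotation used here places no small nucleolar RNA gene over the precursor of any of the 332 matched miRNAs. The part that the cell composition of the blood plays in the levels of the 4 was not tested.

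The total count went with the share that the 4 were chosen on, so that their relation to it is given as a description without a test. With the 4 left out of the total, bta-miR-2411-3p had r = −0.72 and rho = −0.76 with the log2 total over the 14 heifers. The values were r = −0.63 and rho = −0.64 for bta-miR-2332, r = −0.56 and rho = −0.52 for bta-miR-1434-3p, and r = −0.54 and rho = −0.48 for bta-miR-677. Each of the 4 was thus lower in heifers with more counts. Without heifers 27 and 25, the 2 farthest from the median total, r was −0.57 for bta-miR-2411-3p, −0.45 for bta-miR-2332, −0.48 for bta-miR-1434-3p and −0.50 for bta-miR-677. Within FH the 4 values were −0.89, −0.83, −0.65 and −0.60 in that order, and within SFH they were −0.57, −0.58, −0.52 and −0.44. The number of other miRNAs detected followed the share less closely (r = −0.27, rho = −0.16). No relation of it to any of the 4 was detectable, with r from 0.26 to 0.42 (permutation p from 0.134 to 0.362, adjusted 0.214 to 0.362) and rho from 0.29 to 0.36 (permutation p from 0.202 to 0.310, adjusted 0.275 to 0.310). These p-values were adjusted over 8 relations, those to the total and to the number detected.

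When the share of reads mapped and the log2 total count were fitted together with the group, the slope on the share kept its sign for all 4. It was −1.48 (standard error 0.40) for bta-miR-2411-3p, −1.67 (0.48) for bta-miR-2332, −1.12 (0.52) for bta-miR-677 and −1.37 (1.68) for bta-miR-1434-3p per 10 percentage points. The slope on the total in the same model was 0.33 (standard error 0.53), 0.65 (0.63), 0.50 (0.69) and −0.63 (1.76) in that order. The standard errors of the slopes on the share were larger than without the total, and edgeR called 0 of the 341 slopes after adjustment in this model, with 9 at an unadjusted p of 0.05 or less. No other tool was run for it.

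The slopes on the share within each group also belong to the relation that the 4 were chosen on, and their difference is a description. The difference in slope (SFH minus FH, per 10 percentage points) was −0.84 (standard error 0.54) for bta-miR-2332, −0.47 (0.65) for bta-miR-677, −0.35 (0.44) for bta-miR-2411-3p and −0.17 (3.07) for bta-miR-1434-3p. Over all miRNAs tested with edgeR, 0 of 341 (0%) differed in slope after adjustment and 11 did at an unadjusted p of 0.05 or less, by the only tool used for this comparison.

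The study compared SFH with FH, and in that comparison all 4 miRNAs had higher mean levels in SFH. The log2 fold change of SFH over FH from edgeR was 2.94 (standard error 1.30) for bta-miR-1434-3p, 1.24 (0.48) for bta-miR-2332, 1.41 (0.48) for bta-miR-677 and 0.82 (0.46) for bta-miR-2411-3p. With the thresholds in the methods of the study, an unadjusted p of 0.05 or less and a change of 0.5 or more on the log2 scale in either direction, 3 of the 4 passed and bta-miR-2411-3p did not (edgeR, unadjusted p = 0.0889). Of all 341 miRNAs 3.81% passed these thresholds and 1.47% did so with higher levels in SFH, and the 4 were chosen with this comparison known, so that their count is not independent evidence. After Benjamini-Hochberg adjustment over the 341, none of the 4 passed, with adjusted p from edgeR of 0.563 for bta-miR-2332, 0.415 for bta-miR-677, 0.712 for bta-miR-1434-3p and 0.890 for bta-miR-2411-3p. The same test called 0 of 341 (0%) after adjustment and 20 before it, DESeq2 called 2 after adjustment, bta-miR-92b and bta-miR-2478, which are not among the 4, and limma-voom called 0.

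The groups overlapped for each of the 4. For bta-miR-2332, bta-miR-677 and bta-miR-1434-3p, 5 of the 7 SFH heifers lay above every FH heifer after normalization, and for bta-miR-2411-3p 1 did. For each of the 4, 6 of the 7 SFH heifers lay above the FH median, and the exception was heifer 30. The exact two-sided permutation test of the mean log2 level gave p = 0.0192 for bta-miR-677, p = 0.0262 for bta-miR-1434-3p, 0.199 for bta-miR-2332 and 0.259 for bta-miR-2411-3p (n = 7 per group). These p-values were not adjusted over the 4 miRNAs. The 4 were chosen for their relation to the share and with this comparison known, so the p-values are descriptive and not independent evidence. The mean level of bta-miR-2411-3p was 1008 CPM in SFH (SD 580, n = 7) against 552 CPM in FH (SD 394, n = 7). Single heifers decided several of the threshold calls. bta-miR-2411-3p passed both thresholds without FH heifer 24 (log2 fold change 1.15) or without SFH heifer 30 (log2 fold change 1.01), and bta-miR-2332 did not pass without SFH heifer 32 (1.00). bta-miR-1434-3p did not pass without FH heifer 27 (2.84), SFH heifer 23 (2.73) or SFH heifer 28 (2.67), and its value was 4.17 without FH heifer 20.

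With the share of reads mapped as a covariate, the group difference was smaller for each of the 4. The log2 fold change was 2.28 (standard error 1.35) for bta-miR-1434-3p, 0.55 (0.37) for bta-miR-2332, 0.96 (0.47) for bta-miR-677 and 0.25 (0.29) for bta-miR-2411-3p. None of the 4 then passed the thresholds (edgeR, unadjusted p = 0.106, 0.153, 0.0527 and 0.409), and the adjusted p (edgeR, Benjamini-Hochberg) was 0.987 for each. With the log2 total count as the covariate in place of the share, the values were 3.08, 1.05, 1.31 and 0.67 in the same order, and the first 3 remained past the thresholds. SFH heifers took 5 of the 7 lowest places by share of reads mapped, and the part of the share in the group difference cannot be told apart from that of the group with these 14 heifers.

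**Figure D4:**
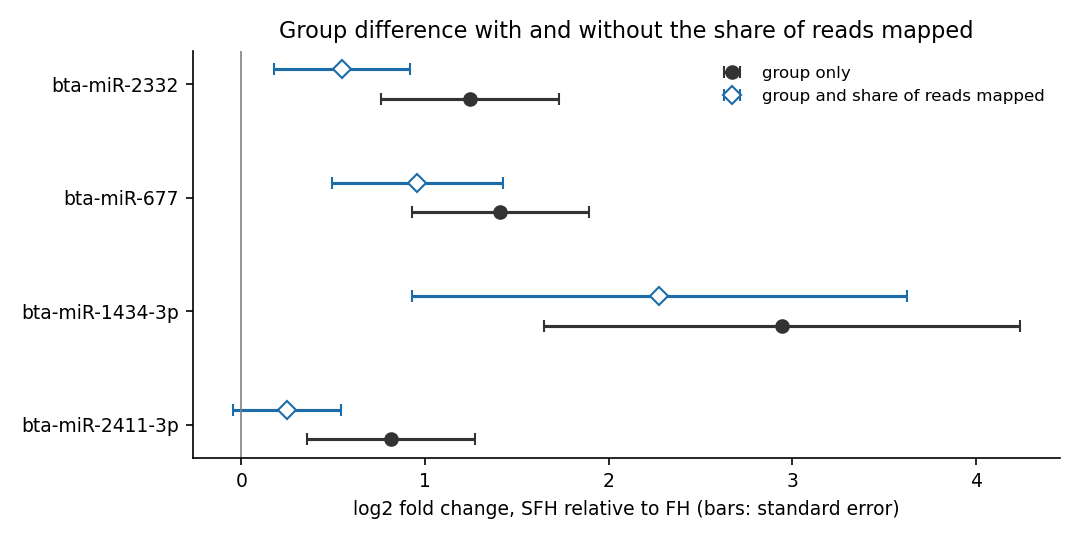
Log2 fold change of SFH relative to FH (x axis) for each miRNA (y axis) from edgeR, with the group alone (filled circles) or with the share of reads mapped as a second term (open diamonds), and bars of 1 standard error. Each diamond lies nearer to 0 than its circle, from 2.94 to 2.28 for bta-miR-1434-3p and from 0.82 to 0.25 for bta-miR-2411-3p.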

How the data were processed

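Small RNA libraries of 14 heifers were analysed. The authors trimmed the adapter and 4 bases from each read end with cutadapt, aligned the reads with miRDeep2 to ARS-UCD1.2 and to miRBase 22.1, retained alignments over 18 nt without seed mismatches, and deposited raw counts per mature miRNA and precursor. They also deposited CPM (edgeR 3.28.1) for 341 miRNAs, and these values equalled the deposited counts divided by each heifer's total over the 341. CPM given for heifers are on that scale.

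Of repeated names, the line with the highest total was kept. miRNAs with at least 1 CPM in at least 7 heifers were tested. Counts were scaled by TMM and tested in edgeR 4.0.16 by quasi-likelihood (R 4.3.3), with the group, the share of reads mapped, or both as terms, and standard errors were taken from the coefficient and its F statistic. Benjamini-Hochberg adjustment ran over all miRNAs tested. Correlations used log2(TMM-normalized CPM + 0.5), with 100000 resamples where a p-value is given (Python 3.11.15, scipy 1.17.1). The alternatives were DESeq2 1.42.0, limma 3.58.1, other scaling factors, filters, pseudocounts, covariates and coefficients, and each heifer left out. Groups were also compared by exact permutation tests. The fits were tested on simulated data. The share of reads mapped was taken from the sequencing summary of the study. The p-values set each effect against the spread between heifers. With 1 library per heifer, that spread also holds differences between libraries.

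The named miRNAs were the 4, the opposite arms of their hairpins, the 3 most correlated with each, the 3 with the highest and the lowest r with the share (mean of at least 10 CPM), and the lists. The 4 miRNAs and the lists were chosen with earlier results of these data known. bta-miR-190b and bta-miR-219, the fits with the total as a second covariate, the difference in slope between groups, the residual correlations and the values without heifer 30 were chosen after the values were seen.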

Additional observations from a re-analysis of the deposited data

Results flagged for a closer look

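bta-miR-2332 in SFH heifer 30 stood apart from the other 6 heifers of its group. On the scale of log2(TMM-normalized CPM + 0.5), the gap to the next heifer was 0.586 of the whole range of the group, above the critical value of 0.568 of Dixon's test for 7 samples. Heifer 30 had 456 counts (115 CPM), and the next lowest SFH heifer, 17, had 926 CPM. Heifer 30 was also lowest in SFH for bta-miR-2411-3p, with a gap of 0.527 of the range, for bta-miR-1434-3p, with 0.519, and for bta-miR-677, with 0.323, none of which exceeded the critical value. This heifer ranked 13 of 14 by share of reads mapped. Chance flags about 1 in 20 groups, and 8 groups were examined. The cause was not tested.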

How the results depend on the processing

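Of 114 alternative values, 76 kept the call or stayed within the error, as did 214 of 224 with 1 heifer left out, and 0 called values changed direction. For the correlations, that error was computed from the same values with 1 heifer left out. Those values could thus hardly fall outside it, and their part of the 214 says little about robustness. The values that changed with 1 heifer left out were all counts or fold changes. The untested r of 3 pairs turned negative, as given at the end. No paired analysis was made, because the groups hold different heifers and no pairs between them are described. The count past both thresholds was 13, 23 with limma-voom, 126 without the CPM filter and 11 to 22 with 1 heifer left out (22 without FH heifer 24, and 20 without SFH heifer 26). The count of slopes was 2, and 1 to 2 with 1 heifer left out, and 0 with the log2 total count as a second covariate. bta-miR-2332 fell below the thresholds with limma-voom (log2 fold change 1.03) and with the share as a covariate (0.55), as did bta-miR-677 (0.96) and bta-miR-1434-3p (2.28) with that covariate. bta-miR-2411-3p passed without the CPM filter (0.82). Leaving out 1 heifer gave 1.00 to 1.56 for bta-miR-2332, 1.14 to 1.61 for bta-miR-677, 2.67 to 4.17 for bta-miR-1434-3p and 0.59 to 1.15 for bta-miR-2411-3p. The filter of at least 1 CPM in all 14 heifers removed bta-miR-1434-3p, so that it has no value there.

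The r with the share was −0.51 on unlogged CPM and −0.25 in SFH without heifer 30 for bta-miR-1434-3p, −0.61 within FH and −0.84 within SFH for bta-miR-677, and −0.96 as rho and −0.79 in SFH without heifer 30 for bta-miR-2411-3p. For pairs, unlogged CPM gave 0.88 for bta-miR-677 with bta-miR-1434-3p and 0.53 for bta-miR-1434-3p with bta-miR-2411-3p, and rho was 0.84 for bta-miR-2332 with bta-miR-1434-3p and 0.94 for bta-miR-2332 with bta-miR-2411-3p. Within FH, r was 0.27 (bta-miR-2332 with bta-miR-677), 0.30 (bta-miR-2332 with bta-miR-1434-3p), 0.95 (bta-miR-2332 with bta-miR-2411-3p), 0.28 (bta-miR-677 with bta-miR-1434-3p), 0.46 (bta-miR-677 with bta-miR-2411-3p) and 0.33 (bta-miR-1434-3p with bta-miR-2411-3p). Within SFH it was 0.86 (bta-miR-2332 with bta-miR-1434-3p), 0.996 (bta-miR-2332 with bta-miR-2411-3p), 0.93 (bta-miR-677 with bta-miR-1434-3p) and 0.81 (bta-miR-1434-3p with bta-miR-2411-3p). Without heifer 30 it was 0.42 (bta-miR-2332 with bta-miR-677), 0.15 (bta-miR-2332 with bta-miR-1434-3p), 0.33 (bta-miR-677 with bta-miR-2411-3p) and −0.00088 (bta-miR-1434-3p with bta-miR-2411-3p). The r of the residuals after the share and the group were fitted was −0.064, 0.31, 0.92, 0.28, −0.045 and 0.12 in the order of the FH values. The cause of these shifts was not tested. The depth limits bta-miR-1434-3p most, with 4 heifers at 0.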
